A study of Mus musculus with 10 samples.

Results

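The genes described here encode glycoproteins of the acellular matrices of the inner ear. They are Tecta, Tectb, Ceacam16, Otog, Otogl, Otoa and Emilin2, which were taken by gene symbol from the count files, and all 7 of 7 were found among the 54532 genes listed. RNA was sequenced from the cochlea of 12-month-old mtKeima mice, 5 treated with nicotinamide riboside (NR) and 5 not treated, with 1 library per mouse. The mtKeima strain carries a transgene for a fluorescent protein that is sent to mitochondria and reads their acidity. The NR group drank water with 7 mg/ml NR (24 mM) from 2 months of age for 10 months, and the Vehicle group drank regular water. Both groups carry the transgene on a mixed genetic background, and the study's methods state that the mice were wild type at the cadherin 23 and nicotinamide nucleotide transhydrogenase genes. The labels give the sex as female and the methods as male. In these libraries Xist was at 0.0882 to 0.405 CPM (counts scaled to a common library size), and the list of sex genes, which is mostly Y-linked, summed to between 179 and 210 CPM, so 0 of 10 libraries showed the pattern of a female. NR is a precursor of NAD+, and the comparison asks how the cochlear transcriptome differed at 12 months of age after its long supply.

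The tectorial membrane is a gel that lies over the organ of Corti and touches the stereocilia of the outer hair cells, so that sound-driven motion of the basilar membrane deflects the hair bundles. It holds collagen fibrils in a matrix of non-collagenous glycoproteins that are secreted by epithelial cells beside the hair cells, largely during development. Alpha-tectorin and beta-tectorin (Tecta, Tectb) form the striated sheet of this matrix, to which CEACAM16 binds. Otogelin and otogelin-like (Otog, Otogl) are further glycoproteins of the tectorial membrane and of the vestibular matrices, otoancorin (Otoa) anchors the membrane to the spiral limbus, and EMILIN-2 (Emilin2) is an elastin-interface protein found in the basilar membrane.

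The starts of 3 of these genes are shown: those of Tecta and Tectb, the pair whose levels were most alike over 8 of the mice as described below, and that of Otog, which has as many matches to 1 of the motifs as Tecta. Each is a RefSeq promoter window of build GRCm38.p6, 250 bases before to 50 bases after the transcription start, written 5′ to 3′ on the strand of the gene, with matches to the motifs searched in capitals. The Tecta window is chr9:42399898-42400197 on the minus strand, the Tectb window is chr19:55180476-55180775 on the plus strand, and the Otog window is chr7:46240737-46241036 on the plus strand.
Tecta: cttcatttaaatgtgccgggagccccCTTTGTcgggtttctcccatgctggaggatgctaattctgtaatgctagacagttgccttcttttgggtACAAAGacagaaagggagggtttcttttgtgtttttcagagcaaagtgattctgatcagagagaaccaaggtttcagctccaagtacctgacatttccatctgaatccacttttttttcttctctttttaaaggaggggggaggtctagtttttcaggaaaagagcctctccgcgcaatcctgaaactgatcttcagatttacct
Tectb: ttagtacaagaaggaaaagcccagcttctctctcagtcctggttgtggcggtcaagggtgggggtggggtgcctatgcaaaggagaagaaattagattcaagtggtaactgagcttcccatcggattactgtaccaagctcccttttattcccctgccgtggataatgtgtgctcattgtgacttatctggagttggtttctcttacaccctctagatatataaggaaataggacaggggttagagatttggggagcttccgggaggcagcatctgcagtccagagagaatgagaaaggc
Otog: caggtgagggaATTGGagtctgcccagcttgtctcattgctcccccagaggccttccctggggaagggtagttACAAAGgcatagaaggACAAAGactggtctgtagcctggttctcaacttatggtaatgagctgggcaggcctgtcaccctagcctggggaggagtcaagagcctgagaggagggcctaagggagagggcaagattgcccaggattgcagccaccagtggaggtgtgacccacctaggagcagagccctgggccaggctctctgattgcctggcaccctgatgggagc
The table holds a window for 5 of the 7 genes, which are these 3, Otoa and Emilin2. The motifs, searched on both strands, were TATAAA (the TATA box core), CCAAT (the CCAAT box), GGGCGG (the GC box), ACAAAG (a core bound by SOX factors), CAGCTG (an E-box) and GGAATG (a core bound by TEAD factors). ACAAAG occurred 2 times in the Tecta window, 224 and 155 bases before the start, and 2 times in the Otog window, 177 and 161 bases before it. Of all 32851 windows of the table, 18.7% hold it at least 1 time, and the share with 2 or more matches was not counted. CCAAT occurred 1 time in Otog and 1 time in Otoa, against 37.4% of all windows. CAGCTG occurred 1 time in Emilin2, against 16.3%. TATAAA, with 13.6% of all windows, GGGCGG, with 35.7%, and GGAATG, with 14.7%, had no match in the 5 windows, and the Tectb window matched none of the motifs. No matches overlapped.

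The libraries held 17060379 to 22931581 counted reads in NR mice and 20004667 to 24419230 in Vehicle mice. Of the 54532 genes, 33224 had a read and 18329 passed the filter on low counts, among them all 7 matrix genes. Levels are CPM after TMM scaling, in which each count is divided by the scaled total of its library. Markers of the cells that a cochlea holds were present, with none of the 14 supporting cell markers and none of the 15 hair cell markers at 0. In 2 libraries, Vehicle 3 and Vehicle 4, markers of the cochlear epithelium stood above all the others. The summed level of the supporting cell markers was 4952 and 5148 CPM in these, against 2753 to 2927 CPM in the other Vehicle mice and 2446 to 3423 CPM in NR mice. Hair cell markers summed to 785.9 and 950.1 CPM there, against 458.7 to 530.8 CPM in the other Vehicle mice and 451 to 662.6 CPM in NR mice. This was not limited to the organ of Corti. The stria vascularis markers, at 2356 and 3620 CPM, and the fibrocyte markers, at 5727 and 4859 CPM, were also highest in Vehicle 3 and 4. The comparison of each of the 7 genes, and the counts of the lists, are therefore also given without these 2 mice. In RNA from a whole tissue, fewer cells of a type and less RNA per cell cannot be told apart.

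With all 10 mice, each of the 7 genes was lower in NR mice, with log2 fold changes from -1.43 for Tectb to -0.50 for Emilin2. Their median was -0.85 on this scale, against -0.00918 for all 18329 tested genes, of which 52.9% were lower. By the study's own threshold, an unadjusted p of 0.05, 7 of 7 were lower in edgeR's quasi-likelihood test, where 4.88% of all tested genes were. By DESeq2 also 7 of 7 were lower at that threshold, against 3.08% of the 33153 genes it tested. That set was not filtered on low counts, so its share is not like that of edgeR. The 7 genes were chosen with earlier results of these data known, so these counts are a description and no test of the set. After Benjamini-Hochberg adjustment over all tested genes, edgeR called 0 of the 7 and 0 genes in all (0.0%), with 886 genes higher and 894 lower at an unadjusted p of 0.05. DESeq2 called 102 of the 19633 genes given an adjusted p, at a threshold of 0.05. Of the 7 matrix genes it called 1, Emilin2. Without Vehicle 3 and Vehicle 4, 1 of 7, again Emilin2, was lower at an unadjusted p of 0.05, against 5.58% of all genes tested. All 7 were still lower in sign, and their median log2 fold change was -0.38, against 0.00856 for all genes tested. The share of all genes lower in sign was not counted in that fit.

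**Figure D1:**
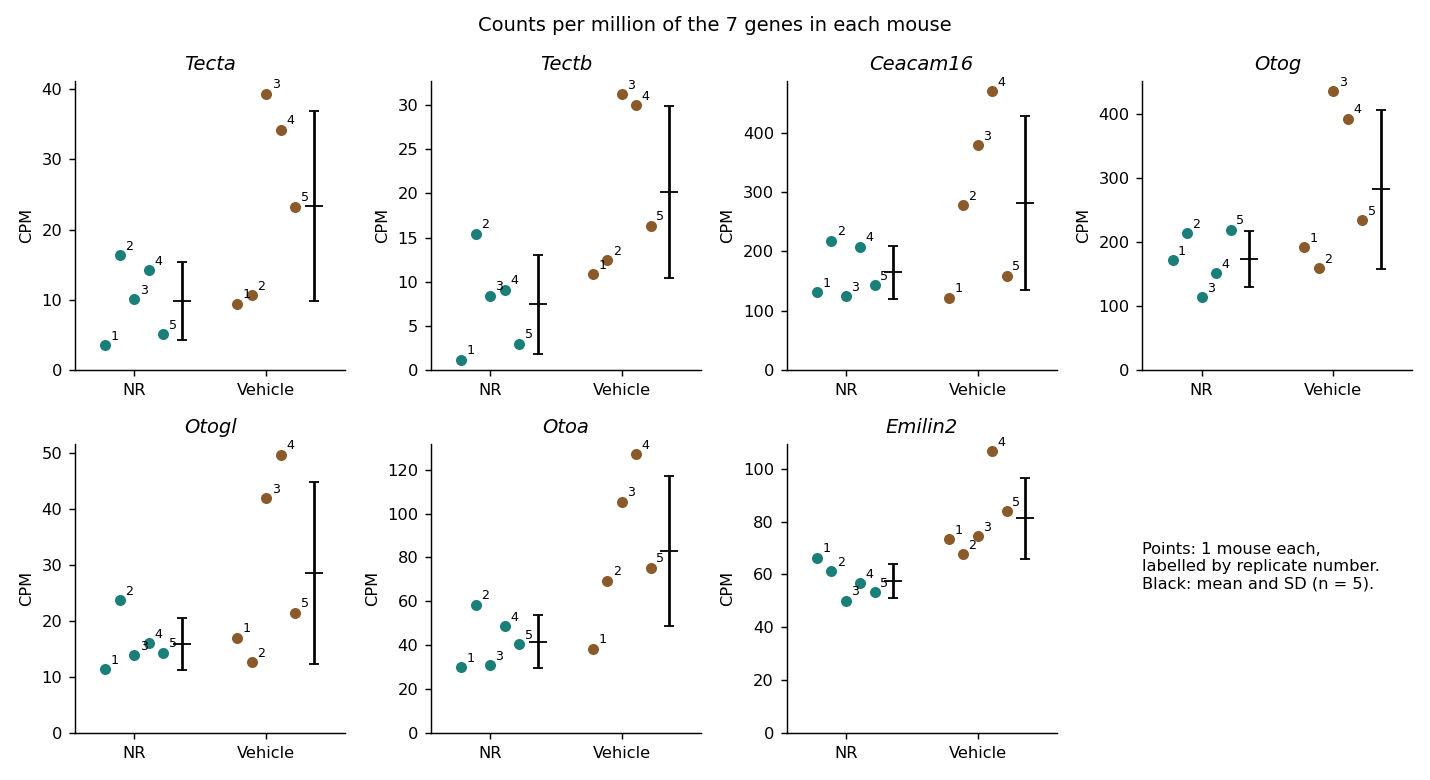
Level of each gene in each mouse, in CPM on linear axes from 0, with NR mice in green and Vehicle mice in brown, numbered by replicate, and the mean and SD of each group (n = 5) in black. Vehicle 3 and Vehicle 4 are the 2 highest mice for 6 of the 7 genes, and Emilin2 alone has every NR mouse below every Vehicle mouse.

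Tecta (ENSMUSG00000037705; chr9:42329619-42399929, minus strand, 24 exons merged over its transcripts, in mm10 coordinates as for the genes below) encodes alpha-tectorin, a large glycoprotein with a zona pellucida domain. In NR mice 1 to 5 it was at 3.57, 16.3, 10.1, 14.2 and 5.15 CPM, and in Vehicle mice 1 to 5 at 9.48, 10.6, 39.3, 34.2 and 23.2 CPM. Vehicle 3, 4 and 5 lay above every NR mouse, while Vehicle 1 and 2 lay within the range of the NR group. The group means were 9.87 ± 5.53 and 23.4 ± 13.5 CPM (SD, n = 5), and the log2 fold change was -1.24 ± 0.49 (SE), with an edgeR adjusted p of 0.476 (0.0285 unadjusted). The exact permutation test of the log2 levels, two-sided over all 252 labelings, gave p = 0.0873. Without Vehicle 3 and 4 the log2 fold change was -0.54 with a 95% interval of -1.65 to 0.57.

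Tectb (ENSMUSG00000024979; chr19:55180733-55196313, plus strand, 12 merged exons) encodes beta-tectorin, a shorter zona pellucida protein that pairs with alpha-tectorin. It was at 1.21, 15.4, 8.44, 9.08 and 3.01 CPM in NR mice 1 to 5 and at 10.9, 12.4, 31.2, 29.9 and 16.4 CPM in Vehicle mice 1 to 5. NR 2 alone kept the groups from separating, since the other 4 NR mice lay below every Vehicle mouse. The largest spread of the 7 genes was in the NR group here, with a 12.8-fold range between NR 1 and NR 2. The group means were 7.43 ± 5.62 and 20.2 ± 9.72 CPM (SD, n = 5). The log2 fold change was -1.43 ± 0.56 (SE), with an edgeR adjusted p of 0.476 (0.0261 unadjusted), and the exact permutation test gave p = 0.0317. With Vehicle 3 and 4 left out it was -0.82 with a 95% interval of -2.19 to 0.55.

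Ceacam16 (ENSMUSG00000014686; chr7:19852097-19861299, minus strand, 6 merged exons) encodes a secreted adhesion protein of the tectorial membrane. Its level was 131, 218.3, 124.1, 207.6 and 142.8 CPM in NR mice and 121.7, 277.8, 379, 469.3 and 159.2 CPM in Vehicle mice. The lowest of the 10 mice was a Vehicle mouse, Vehicle 1, and all NR mice lay within the range of the Vehicle group. The group means were 164.8 ± 44.7 and 281.4 ± 146 CPM (SD, n = 5), and the log2 fold change was -0.77 ± 0.34 (SE), with an edgeR adjusted p of 0.505 (0.0452 unadjusted). The exact permutation test gave p = 0.159. In the 8 mice other than Vehicle 3 and 4 the log2 fold change was -0.17 with a 95% interval of -0.81 to 0.47. Gm19345 on the opposite strand shares 380 exon bases with Ceacam16, and as the counting took no account of the strand, reads of that stretch cannot be told apart. Gm19345 had 280 to 1537 reads per library and a log2 fold change of -0.86 ± 0.40 (SE), with an unadjusted p of 0.0544. Tecta shares 304 exon bases with Gm47629 and Tectb shares 57 with Mir6715, and both of these had 0 reads in every library. Counts of 0 do not show how reads of the shared stretches were assigned.

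Otog (ENSMUSG00000009487; chr7:46240987-46311434, plus strand, 57 merged exons) encodes otogelin. It was at 171.5, 213.4, 113.9, 151.5 and 218.9 CPM in NR mice and at 191.7, 158.7, 435.1, 392.7 and 234.2 CPM in Vehicle mice. Vehicle 3 and 4 were far above all other mice, and the remaining Vehicle mice, at 158.7 to 234.2 CPM, overlapped the NR group. The log2 fold change was -0.70 ± 0.29 (SE), with an edgeR adjusted p of 0.479 (0.0326 unadjusted), and the exact permutation test gave p = 0.119. Without these 2 mice it was -0.16 with a 95% interval of -0.63 to 0.31.

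Otogl (ENSMUSG00000091455; chr10:107760531-107912134, minus strand, 58 merged exons) encodes a relative of otogelin with the same kind of von Willebrand factor domains. Its level was 11.4, 23.7, 13.9, 16.0 and 14.3 CPM in NR mice and 17, 12.7, 41.9, 49.7 and 21.5 CPM in Vehicle mice. NR 2 lay above Vehicle 1, 2 and 5, so that without the 2 highest mice the groups were interleaved. The log2 fold change was -0.85 ± 0.36 (SE), with an edgeR adjusted p of 0.494 (0.0388 unadjusted), and the exact permutation test gave p = 0.159. Without Vehicle 3 and 4 it was -0.10 with a 95% interval of -0.64 to 0.45, the smallest difference of the 7.

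Otoa (ENSMUSG00000034990; chr7:121081650-121163097, plus strand, 32 merged exons) encodes otoancorin, which sits where the tectorial membrane meets the cells of the spiral limbus. It was at 30, 58.5, 30.8, 48.7 and 40.5 CPM in NR mice and at 38.4, 69.5, 105.4, 127 and 75.3 CPM in Vehicle mice. Vehicle 1 was the only Vehicle mouse within the range of the NR group, and the other 4 were above all NR mice. The group means were 41.7 ± 12.1 and 83.1 ± 34.2 CPM (SD, n = 5). The log2 fold change was -1.0 ± 0.30 (SE), with an edgeR adjusted p of 0.423 (0.00623 unadjusted) and a DESeq2 adjusted p of 0.0754. The exact permutation test gave p = 0.0397. Leaving out Vehicle 3 and 4 gave a log2 fold change of -0.55 with a 95% interval of -1.15 to 0.05, and the unadjusted p was 0.0698.

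Emilin2 (ENSMUSG00000024053; chr17:71252172-71311978, minus strand, 13 merged exons) encodes a protein of elastic fibres and blood vessels as well as of the basilar membrane. Its level was 66.4, 61.3, 50.2, 56.7 and 53.3 CPM in NR mice and 73.4, 67.8, 74.5, 106.7 and 83.9 CPM in Vehicle mice. Every NR mouse lay below every Vehicle mouse, which was so for 0.878% of all tested genes. The means were 57.6 ± 6.43 and 81.3 ± 15.4 CPM (SD, n = 5), and the log2 fold change was -0.50 ± 0.12 (SE), with an edgeR adjusted p of 0.408 (0.00189 unadjusted) and a DESeq2 adjusted p of 0.0491. The exact permutation p of 0.00794 is the smallest that 5 mice against 5 can give. Vehicle 3 and 4 stood apart least here, with a mean 1.21 times that of the other Vehicle mice, and without them the log2 fold change was -0.38 with a 95% interval of -0.61 to -0.15. The edgeR adjusted p of that value was 0.296 (0.00485 unadjusted), and the exact permutation p over the 56 labelings of the 8 mice was 0.0357.

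**Figure D2:**
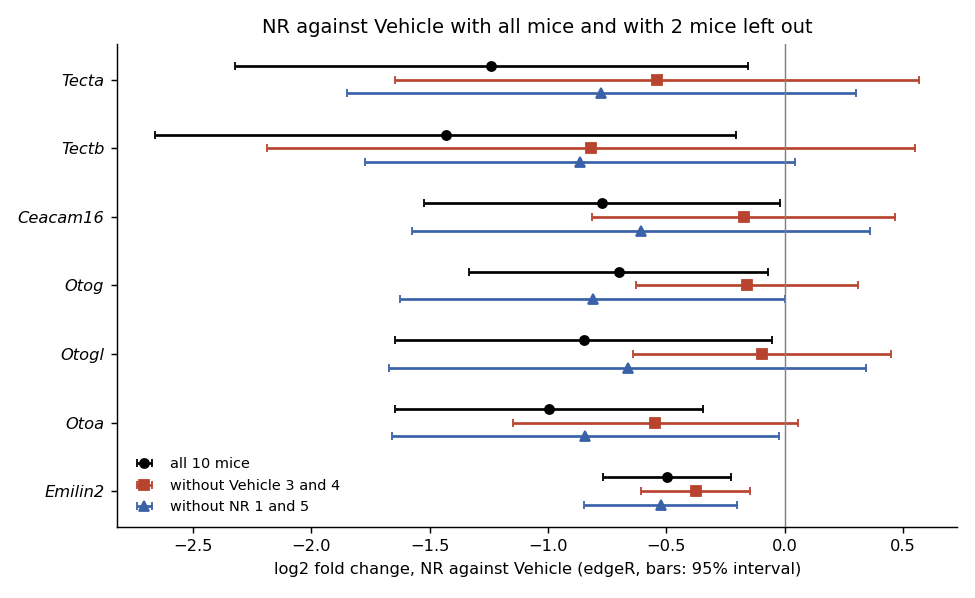
Log2 fold change of NR against Vehicle for each gene with its 95% interval from edgeR, with all 10 mice (black circles), without Vehicle 3 and 4 (red squares) and without NR 1 and 5 (blue triangles). All points lie below 0, and the intervals without Vehicle 3 and 4 include 0 for each gene other than Emilin2.

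The 2 highest mice were shared by 6 of the genes, while the order of the other 8 differed between them. Vehicle 3 and 4 were the 2 highest mice for Tecta, Tectb, Ceacam16, Otog, Otogl and Otoa, with a mean 1.90 to 2.69 times that of the other 3 Vehicle mice. Against those 3 mice, the mean of the NR group was 0.93 times as high for Otogl, 0.89 for Otog, 0.88 for Ceacam16, 0.77 for Emilin2, 0.68 for Tecta and for Otoa, and 0.56 for Tectb. The levels summed over the 7 genes were 1106 and 1210 CPM in Vehicle 3 and 4, and 351.4 to 613.6 CPM in the other 8 mice of both groups. These are also the 2 mice with the highest markers of supporting cells, hair cells, stria vascularis and fibrocytes. How far the share of such cells enters the difference between groups was not tested. As a further description, the level of each gene was set against the mean log2 level of the supporting cell markers in the same mouse. The log2 ratio was lower in NR mice by values from -1.73 for Tectb to -0.46 for Emilin2, and the exact permutation test gave p = 0.0238 for Tectb, 0.0238 for Emilin2, 0.0317 for Otoa and 0.0556 to 0.0873 for Otog, Tecta, Otogl and Ceacam16. The mean log2 level of the supporting cell markers themselves differed between the groups by -0.02 (exact permutation test, p = 0.913). This mean weights the 14 markers alike, while Gjb2, Gjb6 and Fbxo2 hold most of their summed level. These abundant markers had log2 fold changes of -0.52, -0.37 and -0.47 with all mice, while Hes5, Lgr6 and Ngfr had 0.66, 0.65 and 0.40. Of the 14 markers, 9 were lower in sign, so the difference near 0 joins markers that went opposite ways. Without Vehicle 3 and 4 the difference in the log2 ratio of gene to markers was -1.46 for Tectb, -0.74 for Otoa and -0.58 for Emilin2, and -0.85 to -0.32 for the other 4. The exact permutation p was then 0.0179 for Emilin2, the smallest that these 8 mice can give, and 0.125 or more for the other 6.

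The tectorins had a second pair of mice that stood apart, at the low end. NR 1 and NR 5 were the lowest 2 of the 10 mice for both Tecta and Tectb, and Tectb in NR 1 rested on 25 reads and Tecta on 74. Otog did not share this, since NR 5 had the highest Otog level of its group. Per kilobase of exon, the ratio of Tecta to Otog was 0.029 in NR 1 and 0.0329 in NR 5, and 0.0691 to 0.138 in the other 8 mice. The ratio of Otogl to Otog was also lowest in these 2 mice, at 0.0783 and 0.0771, against 0.0942 to 0.15 in the rest. The bone markers were highest in the same mice, with a sum of 3263 CPM in NR 1 and 2315 CPM in NR 5, against 527.1 to 1853 CPM in the others, and the part of bone in these ratios was not tested. None of the 8 bone markers was at 0 in the data, and Col1a1 and Col1a2, which fibroblasts also make, held most of the sum. Bone was not alone in this, since Zpld1, a listed relative by protein family, was at 2.99 CPM in NR 1 and 3.36 CPM in NR 5. In the other mice Zpld1 was at 0.0437 to 1.99 CPM. Oc90 of the otoconial list, at 2.26 and 4.51 CPM in NR 1 and NR 5, was highest in Vehicle 1, at 4.82 CPM. The part of these genes' tissues was not tested either. Without NR 1 and NR 5, an alternative chosen after the values were seen, 2 of the 7 genes, Otoa and Emilin2, were lower at an unadjusted p of 0.05, against 2.26% of all genes tested. The log2 fold change was then -0.78 for Tecta (unadjusted p = 0.137 by edgeR) and -0.86 for Tectb (0.0595). That of Otog was -0.81 (0.0505), no smaller than with all mice, and those of Otogl and Ceacam16 were -0.66 (0.170) and -0.61 (0.189).

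**Figure D3:**
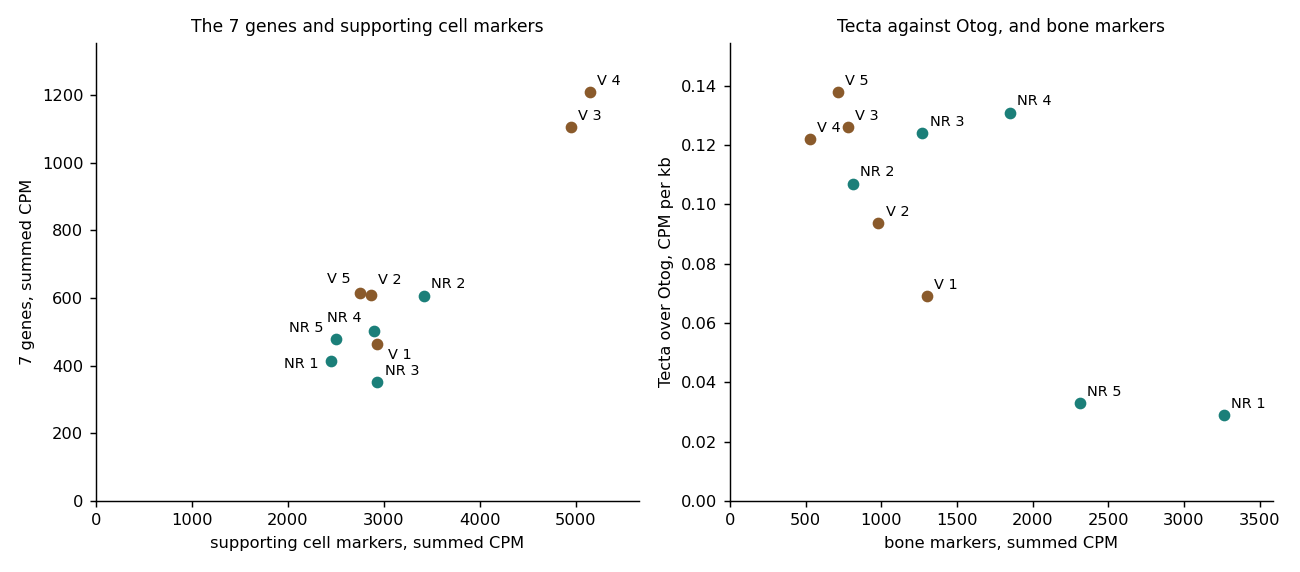
Left, summed CPM of the 7 genes against summed CPM of the 14 supporting cell markers in each mouse, with Vehicle 3 and 4 apart at the upper right. Right, ratio of Tecta to Otog in CPM per kilobase against summed CPM of the 8 bone markers, with NR 1 and 5 apart at the lower right (NR green, Vehicle brown labelled V).

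Across the 8 mice other than Vehicle 3 and 4, the log2 levels of all 21 pairs of the 7 genes had a positive Pearson's r, from 0.0543 for Otog with Ceacam16 to 0.93 for Tecta with Tectb. The tectorin pair alone passed after adjustment over the 21 pairs (exact permutation test over 8 mice, p = 0.00107, adjusted p = 0.0224). Its Spearman's rho was 0.881 (exact permutation p = 0.00724, adjusted p = 0.108), and r was 0.878 without the 2 mice farthest from the median of Tecta. These 8 mice hold 5 NR and 3 Vehicle mice, so the difference between the groups enters these values. Among 16540 genes with a mean of at least 1 CPM, those most alike to each matrix gene were picked by Pearson's r of log2 CPM over the 10 mice, and the values given here are r over the 8 mice. They are high because they were picked as the highest. The 3 most alike to Tecta were Car7 (0.992), Gm1113 (0.986) and Pantr1 (0.976), and to Tectb Scly (0.963), Kirrel3os (0.961) and Retreg1 (0.961). For Otog they were Cpq (0.918), Pik3ip1 (0.892) and Phc1 (0.80), and for Otogl Zbtb20 (0.932), Zfhx4 (0.925) and Myo15 (0.916), the last of which encodes a motor protein of hair cell stereocilia. For Otoa they were Ptprm (0.981), Pfkl (0.948) and Srebf1 (0.924), and for Ceacam16 the overlapping Gm19345 (0.971), Sil1 (0.974) and Cpm (0.95). For Emilin2 they were Tcf4 (0.914), Sulf1 (0.923) and Cped1 (0.924), of which Sulf1 edits heparan sulfate in the extracellular matrix.

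Per kilobase of exon, the genes differed widely in level in these adult cochleae. Ceacam16 had the highest level, with a mean of 136.4 CPM per kilobase over the 10 mice, which is at the 98.5 percentile of the tested genes. Otog followed at 22.1 (85.9 percentile), Emilin2 at 12.6 (75.1) and Otoa at 7.39 (61.5). Tectb was at 3.61 (42.8), Otogl at 2.54 (35.3) and Tecta at 2.24 CPM per kilobase (32.9). The range over mice of Ceacam16 did not overlap that of Otog, while each other pair of neighbours in this order overlapped. The ratio of Tectb to Tecta per kilobase was 0.655 to 1.83 in NR mice and 1.37 to 2.27 in Vehicle mice, so that beta-tectorin was the higher of the pair in 9 of 10 mice. The ratio of Otoa to Ceacam16 was 0.0443 to 0.0549 in NR mice and 0.0485 to 0.0916 in Vehicle mice.

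Other genes of these matrices were read from lists chosen with earlier results known. Of all tested genes, 4.88% were lower and 4.83% higher at an unadjusted p of 0.05 in edgeR, and 5.58% and 4.11% without Vehicle 3 and 4. The 8 collagen genes of the tectorial membrane had a median log2 fold change of -0.0995, with 0 lower and 1 higher at an unadjusted p of 0.05 in edgeR. Col11a2, the most abundant of them, was at 738.5 ± 117 CPM in NR and 790.9 ± 158 CPM in Vehicle mice (SD, n = 5), and Col9a1, Col9a2 and Col9a3, the chains of collagen IX, had log2 fold changes of -0.10, -0.12 and -0.20, and of 0.15, 0.11 and -0.0043 without Vehicle 3 and 4. The gene that was higher was Col5a2, a collagen V chain that many connective tissues make, at 0.65 ± 0.26 (SE; unadjusted p = 0.0279 by edgeR), and at 0.56 (0.108) without these 2 mice. The exact permutation test of the list's mean log2 level gave p = 0.611, and without Vehicle 3 and 4 the median log2 fold change was 0.13, with 0 lower and 0 higher.

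**Figure D4:**
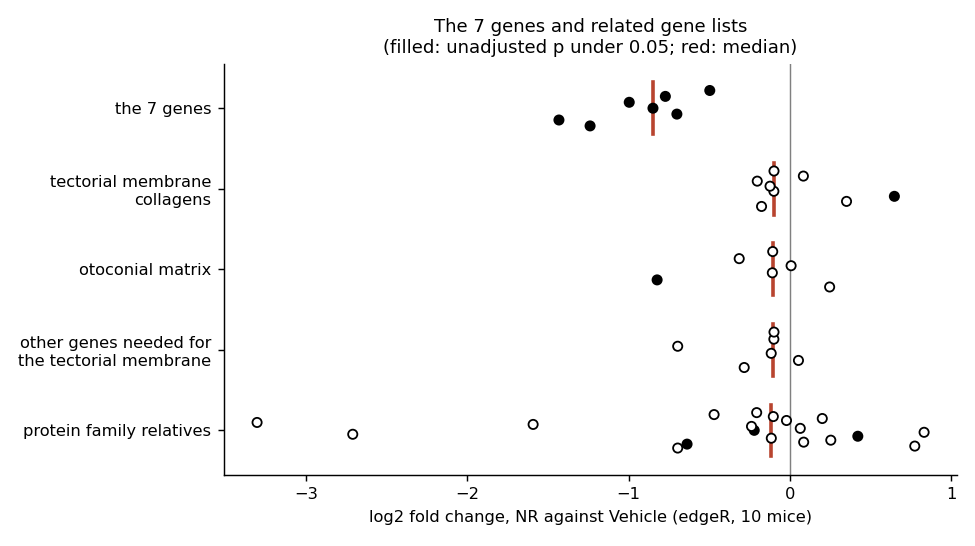
Log2 fold change of NR against Vehicle (edgeR, 10 mice) for the 7 genes and for the tested genes of each related list, filled where the unadjusted p is under 0.05, with the median of each list in red. The 7 genes lie between -1.43 and -0.50, and the medians of the 4 lists lie between -0.12 and -0.10.

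Of 6 genes of the otoconial matrix, 1 was lower and 0 higher at an unadjusted p of 0.05, against 4.88% and 4.83% of all tested genes. The median log2 fold change of the 6 was -0.11. The lower gene was Otol1, which encodes the collagen-like otolin of otoconia, at 5.49, 13.9, 7.62, 10.6 and 6.14 CPM in NR mice and 6.11, 10.4, 22.5, 23.7 and 14.8 CPM in Vehicle mice. It too was highest in Vehicle 3 and 4, and its log2 fold change was -0.82 ± 0.37 (SE; unadjusted p = 0.0492 by edgeR) with all mice and -0.25 without these 2. Sparcl1, the most abundant of this list, was at 1909 ± 271 CPM in NR and 2059 ± 284 CPM in Vehicle mice (SD, n = 5). Of the 6 other genes needed for the tectorial membrane, 0 were lower or higher at an unadjusted p of 0.05 by edgeR, and the median log2 fold change was -0.11. Among them Strc, which encodes the stereocilin that links the outer hair cell bundles to the membrane, was at 21.4 and 28.0 CPM in Vehicle 3 and 4 and at 7.0 to 13.0 CPM in the other 8 mice. Its log2 fold change was -0.70 ± 0.36 (SE; unadjusted p = 0.0778 by edgeR) with all mice and 0.09 without these 2. Hpn, a serine protease whose loss distorts the tectorial membrane, differed by -0.12 ± 0.15 (SE), and Thrb, a thyroid hormone receptor, by -0.28 ± 0.14 (SE), and by -0.02 and -0.13 without these 2 mice.

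Relatives of the 7 genes by protein family were mixed. Of all tested genes, 4.88% were lower and 4.83% higher at an unadjusted p of 0.05 in edgeR, and 5.58% and 4.11% without Vehicle 3 and 4. Of 25 relatives listed, 19 were tested, and 2 were lower and 1 was higher at that threshold. The median difference of the relatives was -0.12 on the log2 scale. The lower ones were Mslnl, a relative of otoancorin, at -0.64 ± 0.26 (SE), and Tgfbr3, a zona pellucida domain receptor, at -0.22 ± 0.06 (SE). The higher one was Mmrn2, a relative of Emilin2 made by endothelial cells, at 0.42 ± 0.09 (SE). Emilin1, the closest relative of Emilin2 in the list, was at 54.5 ± 11.4 CPM in NR and 51.4 ± 8.39 CPM in Vehicle mice (SD, n = 5), a log2 fold change of 0.08 ± 0.16 (SE). Without Vehicle 3 and 4, the difference in Mslnl was -0.25 (unadjusted p = 0.330 by edgeR), so that it was no longer among the lower genes, while Tgfbr3 was at -0.16 (0.0302) and Mmrn2 at 0.43 (0.00248). In that fit Gp2, a zona pellucida protein, was also lower, at -3.40 (0.0399), and Emilin3, another relative of Emilin2, was also higher, at 1.1 (0.0131). Gp2 was at 4.74 to 24.85 CPM in NR mice and 0.325 to 445.1 CPM in Vehicle mice. Its mean in all Vehicle mice was 92.9 ± 197 CPM (SD, n = 5), so its fold change rests on the highest Vehicle mouse.

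Several other tissues also differed between the libraries, and their part in the results was not tested. The counts in this paragraph are at an unadjusted p of 0.05 in edgeR, where 4.88% of all tested genes were lower and 4.83% higher with all mice, and 5.58% and 4.11% without Vehicle 3 and 4. The stria vascularis markers summed to 1153 to 1833 CPM in NR and 1565 to 3620 CPM in Vehicle mice. Of these, 5 of 8 were lower with all mice and 1 of 8 without Vehicle 3 and 4, and the median log2 fold change went from -0.56 to -0.21. The fibrocyte markers summed to 3008 to 4578 and 3207 to 5727 CPM, with 1 of 5 lower with all mice and 0 of 5 without these 2, and medians of -0.39 and 0.04. Supporting cell markers had 3 of 14 lower and 1 higher, and then 0 lower and 4 higher, with medians of -0.21 and 0.16. Hair cell markers had 3 of 15 lower and 0 higher, and then 0 lower and 2 higher, with medians of -0.50 and 0.05. Of the adipocyte markers, 4 of 5 tested were higher in both fits, with a sum of 34.2 to 75.6 CPM in NR and 6.47 to 23.0 CPM in Vehicle mice. Skeletal muscle markers, at 9.88 to 671.4 CPM and 9.61 to 67.1 CPM with the highest levels in NR 3 and NR 5, had 5 of 6 higher with all mice and 3 of 6 without Vehicle 3 and 4. The bone markers had 2 of 8 higher and 0 lower in both fits. Spiral ganglion neuron markers had 1 of 8 lower and 2 higher, and then 0 lower and 1 higher. Their median log2 fold change was -0.03 in both fits, and their mean log2 level differed by 0.39 with all mice (exact permutation test, p = 0.0714). Schwann cell markers had 1 of 6 lower and then 0, B cell markers 0 of 4 and then 1, and neither had any higher. Macrophage and neutrophil markers had 0 lower and 0 higher in both fits.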

How the data were processed

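RNA of the cochlea of 5 NR-treated and 5 Vehicle mtKeima mice was analysed, from 1 count file per mouse. The values deposited by the authors are raw counts per gene, which their sequencing provider made from STAR (2.6.1d) alignments to mm10 with featureCounts (1.5.0), per the labels and the study's methods, with no normalization and without use of strand. The annotation release is not given in the sources used here, and the coordinates of the 7 genes were identical in GENCODE M21. The genes and gene lists were chosen with earlier results of these data known, and the genes named are these 7, list members, and the 3 genes most alike to each.

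Counts were filtered with filterByExpr, normalized by TMM and tested with the quasi-likelihood test of edgeR 4.0.16 in R 4.3.3, adjusted over 18329 genes by Benjamini-Hochberg, with no covariate. The SE was derived from the F statistic. The test was checked on simulated data. DESeq2 1.42.0, other normalizations and filters, a robust fit, a replicate block and leaving out mice were the alternatives. Log2 CPM had a prior count of 2. Exact permutation tests were two-sided over 252 labelings (smallest p 0.00794). Correlations were computed over 8 mice, since Vehicle 3 and 4 form a cluster of their own, a choice made after their values were seen. Each library is 1 cochlear sample of 1 mouse as labelled. No libraries were duplicates.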

Additional observations from a re-analysis of the deposited data

Results flagged for a closer look

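In each of the 2 groups of 5 mice, the highest and the lowest mouse were compared with the rest of the group by Dixon's test, over 60 groups of values for the matrix genes, the related lists and the cell markers. None of the 7 matrix genes had such a mouse, while 6 lists did, where chance at 1 in 20 would give 3. NR 2 was far above the other NR mice in the summed level of the tectorial membrane collagens, at 1630 CPM with the next mouse at 1330 CPM, in the other genes needed for the tectorial membrane, at 1060 CPM with the next at 829 CPM, and in the fibrocyte markers, at 4580 CPM with the next at 3340 CPM. NR 2 was far below the others in neutrophil markers, at 1350 CPM with the next at 3850 CPM. The first 2 of these lists share Col9a1 and Col11a2, and Col11a2, at a mean of 738.5 CPM in NR mice, holds most of the second sum, so they are not separate. Vehicle 2 had a summed level of 5230 CPM for the protein family relatives with the next Vehicle mouse at 513 CPM, and 4264 CPM of this was Muc5b, a mucin of secretory epithelium. Vehicle 1 had 67.1 CPM of skeletal muscle markers with the next Vehicle mouse at 13.0 CPM.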

How the results depend on the processing

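None of the log2 fold changes of the 7 genes changed sign under any alternative run. DESeq2 called 102 of 19633 genes and 1 of the 7, Emilin2, at an adjusted p of 0.05, where edgeR called 0 of 18329. Genes higher at an unadjusted p of 0.05 numbered 1414 with every gene that had a read, against 886, and 669 to 1414 when 1 mouse was left out. Genes lower numbered 574 with library size only, against 894, 424 without NR 1 and 5, and 484 to 1059 when 1 mouse was left out. With library size only, 67.4% of these calls were higher in NR mice, against 49.8%, and the median of all genes was 0.017. The matrix genes lower at an unadjusted p of 0.05 numbered 7 of 7 in the main fit with all mice, where 894 of all genes (4.88%) were lower. When 1 mouse was left out they numbered 2 to 7. There were 2 without Vehicle 3 and 2 without Vehicle 4, where 558 and 763 of all genes were lower. There were 3 without NR 1, 3 without NR 3 and 3 without NR 5, where 521, 484 and 638 of all genes were lower. Without NR 1 and 5 there were 2 (2.26% of all genes), and without both Vehicle 3 and 4 there was 1 (5.58%). Calls at an adjusted p of 0.05 by edgeR ranged from 0 to 1 when 1 mouse was left out. Emilin2 and Otoa were lower at an unadjusted p of 0.05 in each fit that left out 1 mouse, with log2 fold changes of -0.54 to -0.38 and -1.17 to -0.79. The replicate numbers share only a number: the deviations of same-numbered mice correlated at -0.22 to 0.17, and 1 of 5 NR mice correlated best with its own number. With the replicate block, 879 genes were higher and 776 lower, and 5 of the 7 matrix genes were lower. Otog (-0.62, unadjusted p = 0.117) and Otogl (-0.72, 0.0884) were not among these. Counting depth limits Tectb most, at 25 to 771 reads per library.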
